A study of Mus musculus with 8 samples.

Results

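The keratins of the basal and luminal epithelium were read out gene by gene in 8 libraries of sorted mouse mammary tumor cells. The 10 members were taken by symbol from the deposited table of 53697 genes, 6 of them basal (Krt5, Krt14, Krt15, Krt17, Krt6a and Krt6b) and 4 luminal (Krt7, Krt8, Krt18 and Krt19). They belong to the 53 coding keratin genes of the table. RNA came from tumors of 4 mice on a C57BL/6 background that carried the MMTV-PyMT transgene, in which a mammary promoter drives the polyoma middle T oncogene. Of these, 2 mice also carried Dll1-GFP, a knock-in reporter of the Notch ligand gene Dll1, and 2 carried Dll1-mCherry, a reporter on a bacterial artificial chromosome. They are called GFP mice and mCh mice here. CD45, CD31 and Ter119 were used to remove blood and endothelial cells from the digested tumors, and the fluorescence of the reporter then separated Dll1+ from Dll1- cells in each mouse. Each mouse therefore gave 1 Dll1+ and 1 Dll1- library, paired by the mouse number in the labels, and all 4 mice carried the oncogene. The age of the mice was not given in the sources used here, and the sort marked a reporter of Dll1 rather than a basal or luminal surface protein.

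Keratins form the intermediate filaments of epithelial cells. A filament is an obligate mixture of type I chains (Krt14, Krt15, Krt17, Krt18, Krt19) and type II chains (Krt5, Krt6a, Krt6b, Krt7, Krt8), so that the genes are usually read in pairs, with Krt5 and Krt14 in basal cells and Krt8 and Krt18 in luminal and other simple epithelia. In the mammary gland Krt5 and Krt14 mark the basal and myoepithelial layer, Krt7 and Krt19 accompany Krt8 and Krt18 in luminal cells, Krt15 is known from basal cells of stratified epithelia and the hair follicle bulge, and Krt6a, Krt6b and Krt17 are induced in stressed or activated epithelium and are made in hair follicles. MMTV-PyMT tumors are regarded as luminal.

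Total counts ranged from 27301396 to 123907626 per library. Levels are given as CPM, counts per 1 M counts of a library after TMM normalization, and the floor of 3 counts lay between 0.0240 and 0.105 CPM, which covers counting error only. Dll1 itself, the sorted gene, was at 7.61 to 50.3 CPM in the Dll1- and at 87.5 to 250 CPM in the Dll1+ libraries. Epcam, a marker of epithelial cells, was at 899 to 1240 CPM in all 8 libraries. Libraries of the reporters stood apart in markers of other cells. The summed level of 8 fibroblast markers was 1240 to 1453 CPM in the 4 GFP libraries, 8299 and 23874 CPM in the Dll1- libraries of mCh mice 1 and 2, and 3665 and 3804 CPM in their Dll1+ libraries. Sums of 6 pericyte, 6 endothelial and 4 adipocyte markers were likewise highest in the Dll1- libraries of the mCh mice, at 605 and 765, at 124 and 288, and at 31.9 and 80.6 CPM. Of 8 immune markers the summed level was 237 to 420 CPM in GFP and 378 to 635 CPM in mCh libraries. Much of that sum was Cd14, at 147 to 423 CPM and higher in Dll1+ cells of every mouse. Lyz2, Csf1r, Itgam and Ptprc of the same list were instead highest in the Dll1- libraries of the mCh mice. Lyz2 was at 220 and 241 CPM there, at 95.2 and 105 CPM in their Dll1+ libraries and at 36.5 to 47.5 CPM in GFP libraries. The sum of 6 epithelial markers was 2136 to 2640 CPM in all 8 libraries. These are bulk samples, so a lower share of cells of a type and less RNA of a gene per cell cannot be told apart. The reporter construct, the mice and the stromal content changed together between GFP and mCh libraries and cannot be told apart either.

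In the genome, Krt5, Krt6a, Krt6b, Krt7, Krt8 and Krt18 lie in the type II cluster on chromosome 15 and Krt14, Krt15, Krt17 and Krt19 in the type I cluster on chromosome 11, with Krt18 as the type I gene outside its own cluster. In GRCm38.p6, Krt5 spans chr15:101707070-101712898 and Krt8 chr15:101996698-102004482 on the minus strand, Krt18 spans chr15:102028180-102032027 on the plus strand and Krt14 chr11:100203162-100207548 on the minus strand. Sequence upstream of the start was looked up in RefSeq windows (GRCm38.p6) that reach 250 bases before each start. Such windows were matched for 5 members, and that of Krt14 lay inside the annotated gene and was not used. Those of Krt5, the member with the largest fold change in the comparison of all mice, and of Krt8 and Krt18, the luminal pair, are printed so that the sequence can be set beside the values that follow. They run 5′ to 3′ on the strand of the gene and stop at or before the first base of the annotated transcript. Capitals mark CACCC on either strand, the core of the motif of KLF factors. Krt5 is read at chr15:101712906-101713155 (minus strand), Krt8 at chr15:102004483-102004592 (minus strand) and Krt18 at chr15:102027966-102028179 (plus strand).
Krt5: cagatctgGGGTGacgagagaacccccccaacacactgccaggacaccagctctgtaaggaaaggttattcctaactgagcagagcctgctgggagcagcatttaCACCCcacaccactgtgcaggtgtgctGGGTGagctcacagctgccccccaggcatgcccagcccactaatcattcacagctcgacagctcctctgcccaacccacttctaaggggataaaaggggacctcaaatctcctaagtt
Krt8: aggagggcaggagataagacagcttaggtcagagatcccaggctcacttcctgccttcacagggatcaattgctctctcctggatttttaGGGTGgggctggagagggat
Krt18: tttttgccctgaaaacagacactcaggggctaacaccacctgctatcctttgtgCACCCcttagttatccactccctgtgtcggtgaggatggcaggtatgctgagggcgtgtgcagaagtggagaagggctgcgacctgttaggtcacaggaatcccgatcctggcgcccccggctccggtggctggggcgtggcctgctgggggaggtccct

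In the full windows of 250 bases, CACCC was found in 4 of the 4 that were used (Krt5, Krt7, Krt8 and Krt18), with 3 matches at Krt5, 2 at Krt8 and 1 each at Krt7 and Krt18, and in 52.0% of all 32851 windows. TGGGAA, the core bound by the Notch partner RBPJ, was found on either strand at Krt8 alone, where it overlaps a CACCC match read on the other strand by 2 bases and lies inside the annotated transcript, and in 21.6% of all windows. GCCNNNGGC, the AP-2 motif, was found at Krt7 and Krt18 and in 13.7% of all windows, and TGANTCA, the AP-1 motif, in 0 of the 4 and in 6.75% of all windows. These are matches of letters, on both strands, and do not show a bound site.

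The luminal pair Krt8 and Krt18 was the most abundant of the members in every library. Per kb of the principal transcript, the scale on which levels of different genes are compared, Krt8 had a median of 1071 CPM per kb in the 4 Dll1- libraries and Krt18 of 841 CPM per kb, with overlapping ranges. Krt19 followed at 249 CPM per kb and was separate from both neighbours in that order. Krt7 (42.0 CPM per kb), Krt14 (41.7), Krt17 (11.2), Krt5 (7.77), Krt15 (4.10) and Krt6a (1.81) then followed, with neighbours in that order overlapping. Krt6b, which did not overlap with Krt6a, was last at 0.0441 CPM per kb. In the 4 Dll1+ libraries Krt8 (median 1293 CPM per kb) and Krt18 (1013) led again and did not overlap with any other member. Krt5 was at rank 7 in Dll1- and at rank 5 in Dll1+ cells, there at a median of 65.8 CPM per kb, behind Krt14 at 123 and with Krt17 at 44.9 and Krt7 at 39.6 next to it, all with overlapping ranges. The 10 keratins together held 0.357% to 0.751% of the counts of a library, and 6 basal members 0.00940% to 0.119%.

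**Figure D1:**
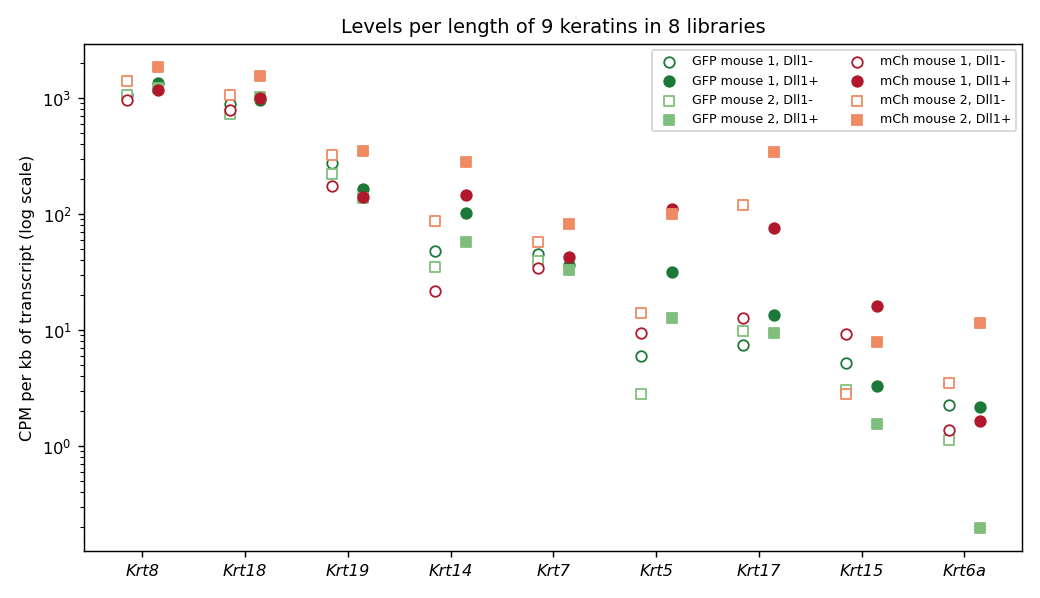
Level of 9 keratins in CPM per kb of transcript (log axis, without Krt6b) in the 8 libraries, with open symbols for Dll1- and filled symbols for Dll1+ cells and 1 colour and symbol for each mouse. Krt8 and Krt18 lie above the other members in all 8 libraries, and the basal keratins span the widest range between libraries.

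Dll1+ and Dll1- cells were compared over the 4 mice with edgeR's quasi-likelihood test with the mouse as a block. A gene was called at a Benjamini-Hochberg adjusted p under 0.05 over all tested genes. Krt6b did not pass the filter on low counts, so that 9 of the 10 members were tested. In all 4 mice together 1 of 9 was called, Krt5, against 14.0% of all 18322 genes, and 6 had an unadjusted p under 0.05. The median log2 fold change of the 9 was 0.31, against -0.000684 over all genes. In GFP mice 2 of 9 were called, Krt5 higher and Krt19 lower in Dll1+ cells, against 9.13% of all genes. In mCh mice 4 of 9 were called, Krt5, Krt14, Krt15 and Krt7, all higher, against 11.8% of all genes. The median log2 fold change of the 9 members was 0.27 in GFP mice and 1.01 in mCh mice, against -0.01 and 0.02 over all genes. DESeq2's Wald test called 5 members over the 4 mice, 4 in GFP mice and 7 in mCh mice, and without the mouse as a block edgeR called 0 in each of the 3 comparisons. Of all genes, DESeq2 called 4362 over the 4 mice. Without the block edgeR called 0 of all genes over the 4 mice, 274 in GFP mice and 212 in mCh mice. Where a mouse is left out of its own reporter below, the effect there comes from 1 mouse, and the spread is taken from the other mice. In that setting nearly all calls of any gene were lost in GFP mice, and fewer genes were called in mCh mice. A call lost there is therefore not particular to that gene.

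**Figure D2:**
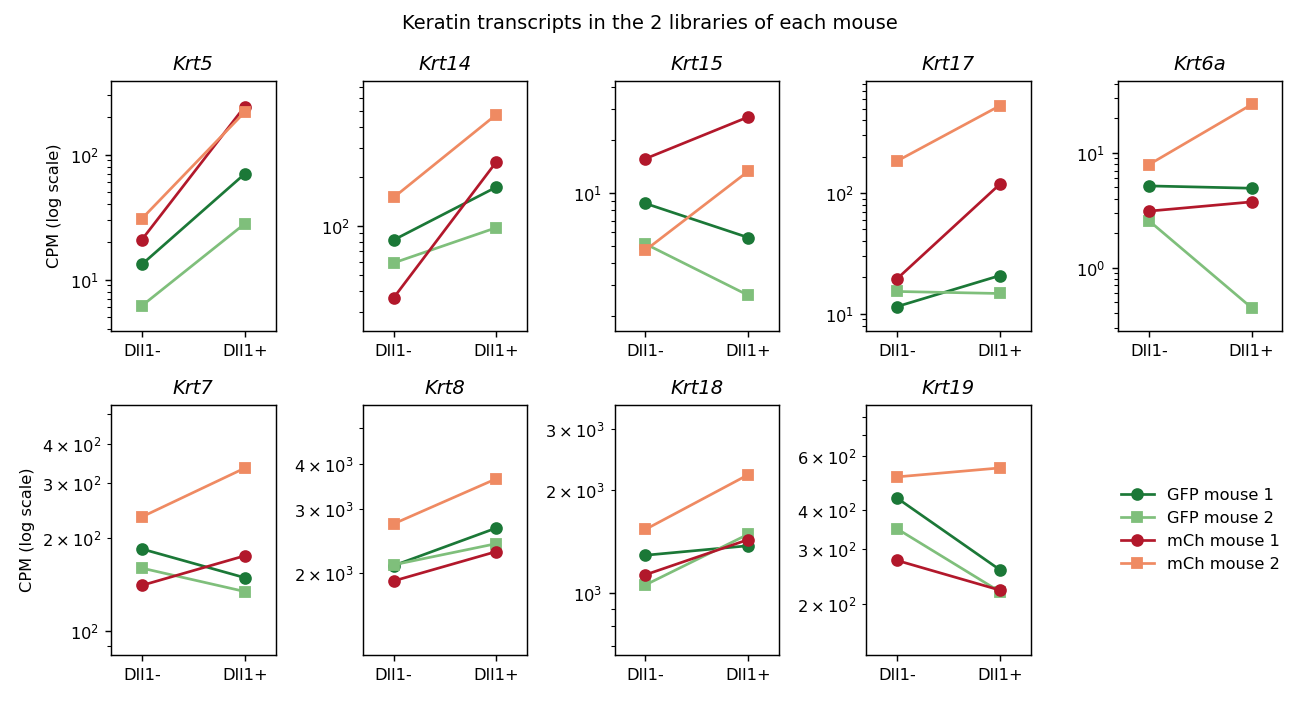
CPM of 9 keratins (log axes, a scale for each panel) in the Dll1- and the Dll1+ library of each mouse, joined by a line. Krt5, Krt14, Krt8 and Krt18 are higher in the Dll1+ library of 4 of 4 mice, Krt15 and Krt7 are lower there in the GFP mice and higher in the mCh mice, and the Dll1+ library of mCh mouse 2 is the highest for Krt14, Krt17, Krt6a, Krt7, Krt8, Krt18 and Krt19.

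Among the basal type II keratins, Krt5 had the clearest change. Its level was 13.2 and 6.17 CPM in the Dll1- cells of GFP mice 1 and 2, 20.9 and 30.8 CPM in those of mCh mice 1 and 2, and 70.1, 27.9, 243 and 219 CPM in the Dll1+ cells of the same mice. Every Dll1+ library lay above the Dll1- library of its own mouse, but the Dll1+ library of GFP mouse 2 lay just under the Dll1- library of mCh mouse 2, so that the groups of 4 overlapped. The ratio within a mouse was 5.30, 4.53, 11.6 and 7.12. With all 4 mice in the fit, this was a log2 fold change of 2.77 with an SE of 0.25 (adjusted p = 0.00730, edgeR). It was 2.30 with an SE of 0.20 in GFP mice (adjusted p = 0.00686) and 3.19 with an SE of 0.19 in mCh mice (adjusted p = 0.00705). The call over 4 mice was kept with each mouse left out in turn, at log2 fold changes of 2.49 to 2.94. It was lost without the mouse as a block (adjusted p = 0.267), and in GFP mice it was lost without GFP mouse 1 (0.0811) or without GFP mouse 2 (0.0865). In mCh mice the adjusted p was 0.0524 without the block and 0.0604 with the mCh mice fitted alone.

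Krt14, the type I partner of Krt5, was at 82.2 and 59.5 CPM in Dll1- cells of the GFP mice and at 36.5 and 149 CPM in those of the mCh mice. In Dll1+ cells it was at 173, 97.7, 247 and 479 CPM in the same order of mice. All 4 mice had more Krt14 in Dll1+ cells, and the groups of 4 overlapped because Dll1- cells of mCh mouse 2 held more than Dll1+ cells of GFP mouse 2. In the fit of all mice the log2 fold change was 1.55 with an SE of 0.36, which missed the threshold (adjusted p = 0.0533, edgeR). It passed with RLE size factors (0.0492), with at least 10 counts in every library (0.046) and with DESeq2 (0.00196). In mCh mice the log2 fold change was 2.22 with an SE of 0.31 (adjusted p = 0.0308), which was lost without the block (0.179), without the filter on low counts (0.0857) and with the mCh mice fitted alone (0.0947). In GFP mice it was 0.89 with an SE of 0.30 (adjusted p = 0.168), and it passed there without mCh mouse 1 (0.00954), without mCh mouse 2 (0.0103) and with the GFP mice fitted alone (0.0112).

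The partners did not move by equal ratios. Per kb, there was 8.03 and 12.5 times as much Krt14 as Krt5 in Dll1- cells of GFP mice 1 and 2, and 3.19 and 4.53 times as much in their Dll1+ cells. In mCh mice the ratio was 2.26 and 6.28 in Dll1- and 1.31 and 2.83 in Dll1+ cells. The excess of Krt14 over Krt5 was thus smaller in Dll1+ cells of 4 of 4 mice, with Krt14 above Krt5 in all 8 libraries.

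Krt15, the other basal type I keratin of low level, went in opposite directions by reporter. It was at 8.77 and 5.16 CPM in Dll1- cells and at 5.61 and 2.64 CPM in Dll1+ cells of GFP mice 1 and 2. In mCh mice 1 and 2 it was at 15.7 and 4.76 CPM in Dll1- and at 27.1 and 13.3 CPM in Dll1+ cells. Both GFP mice had less and both mCh mice had more Krt15 in Dll1+ cells, and the groups of 4 overlapped. The log2 fold change was -0.80 with an SE of 0.21 in GFP mice (adjusted p = 0.0703, edgeR) and 1.11 with an SE of 0.20 in mCh mice (adjusted p = 0.0238). Across the 4 mice it was 0.20 with an SE of 0.47 (adjusted p = 0.798). The call in mCh mice was lost without mCh mouse 2 (0.088), without GFP mouse 1 (0.0525) or GFP mouse 2 (0.055), without the block (0.473) and with the mCh mice fitted alone (0.0802). The lower level in GFP mice passed without mCh mouse 1 (0.0436), without mCh mouse 2 (0.0297), without the filter on low counts (0.000996), with DESeq2 (0.0443) and with the GFP mice fitted alone (0.0490).

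Krt17 differed widely between mice. It was at 11.5 and 15.3 CPM in Dll1- and at 20.7 and 14.7 CPM in Dll1+ cells of GFP mice 1 and 2. In mCh mouse 1 it was at 19.5 CPM in Dll1- and 118 CPM in Dll1+ cells, and in mCh mouse 2 at 184 and 528 CPM. Dll1+ cells held more Krt17 in 3 of 4 mice, GFP mouse 2 held slightly less, and the Dll1- library of mCh mouse 2 exceeded 3 of the 4 Dll1+ libraries. Its log2 fold change was 1.27 with an SE of 0.45 over the 4 mice (adjusted p = 0.130, edgeR), 0.39 with an SE of 0.40 in GFP mice (0.622) and 2.05 with an SE of 0.38 in mCh mice (0.0546). The last value passed the threshold with RLE size factors (0.0466), with DESeq2 (0.000464), with at least 10 counts in every library (0.0457), and with GFP mouse 1 (0.0387) or GFP mouse 2 (0.042) left out.

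The inducible type II keratins were the lowest of the members. Krt6a was at 5.15, 2.56, 3.11 and 7.89 CPM in Dll1- cells of GFP mice 1 and 2 and mCh mice 1 and 2, and at 4.92, 0.447, 3.74 and 26.4 CPM in their Dll1+ cells. GFP mouse 1 and mCh mouse 1 hardly differed between their libraries, GFP mouse 2 had less and mCh mouse 2 more in Dll1+ cells, and the groups overlapped. Its log2 fold change was 0.04 with an SE of 0.68 over the 4 mice (adjusted p = 0.971, edgeR), and it was -1.04 in GFP mice (0.482) and 1.01 in mCh mice (0.403). Krt6b had 0 and 5 counts in Dll1- and 3 and 0 in Dll1+ cells of the GFP mice, and 3 and 28 in Dll1- and 4 and 58 in Dll1+ cells of the mCh mice. Only mCh mouse 2 lay well over the floor in both libraries, at 0.925 and 1.04 CPM. The counts of 0 allow up to 0.102 CPM in Dll1- cells of GFP mouse 1 and 0.0671 CPM in Dll1+ cells of GFP mouse 2. The genes share 1109 sequences of 31 bases, which is 45.9% of those of Krt6a and 50.3% of those of Krt6b, so that the split of reads between them is uncertain. Summing their counts gave 0 calls for the sum in the comparisons.

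The luminal pair differed little between the cells and in the same direction in every mouse, without a call at the main settings. Krt8, the type II chain, was at 2091 and 2102 CPM in Dll1- cells of the GFP mice, at 1898 and 2728 CPM in those of the mCh mice, and at 2657, 2405, 2287 and 3633 CPM in the Dll1+ cells of the same mice. Krt18, its type I partner, was at 1287, 1055, 1129 and 1531 CPM in Dll1- and at 1372, 1482, 1430 and 2210 CPM in Dll1+ cells. Both were higher in Dll1+ cells of 4 of 4 mice, and for both the Dll1- library of mCh mouse 2 lay above 3 of the 4 Dll1+ libraries. The log2 fold change over the 4 mice was 0.31 with an SE of 0.08 for Krt8 (adjusted p = 0.0638, edgeR) and 0.36 with an SE of 0.10 for Krt18 (adjusted p = 0.0643). DESeq2 called Krt8 in all 3 Dll1 comparisons and Krt18 over the 4 mice (0.000653) and in mCh mice (0.0118). With edgeR, Krt18 passed over the 4 mice with at least 10 counts in every library (0.0494). It also passed in mCh mice without the filter on low counts (0.0374). Per kb, there was 1.17 to 1.46 times as much Krt8 as Krt18 in the 8 libraries.

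Krt7, a type II keratin of luminal and ductal cells, was at 184 and 160 CPM in Dll1- and 149 and 134 CPM in Dll1+ cells of the GFP mice. In the mCh mice it was at 141 and 234 CPM in Dll1- and 175 and 335 CPM in Dll1+ cells. As with Krt15, both GFP mice had less and both mCh mice more in Dll1+ cells, and the groups of 4 overlapped. The log2 fold change was -0.28 with an SE of 0.09 in GFP mice (adjusted p = 0.104, edgeR), 0.42 with an SE of 0.09 in mCh mice (adjusted p = 0.0332) and 0.07 with an SE of 0.16 over the 4 mice (adjusted p = 0.786). In mCh mice the call was lost with any of the 4 mice left out (adjusted p from 0.0511 to 0.181), without the block (0.530) and with the mCh mice fitted alone (0.0967). It was also lost when libraries were scaled to the summed epithelial markers (log2 fold change 0.22, adjusted p = 0.108).

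Krt19, a type I keratin of luminal and ductal cells, was at 438, 348, 275 and 513 CPM in Dll1- cells of GFP mice 1 and 2 and mCh mice 1 and 2. In their Dll1+ cells it was at 257, 218, 221 and 548 CPM. It was lower in Dll1+ cells of 3 of 4 mice, with mCh mouse 2 as the exception, whose libraries held more than any other. The log2 fold change was -0.72 with an SE of 0.12 in GFP mice (adjusted p = 0.0195, edgeR), -0.11 with an SE of 0.12 in mCh mice (0.581) and -0.42 with an SE of 0.15 over the 4 mice (0.128). In GFP mice the call was lost without GFP mouse 1 (0.198), without GFP mouse 2 (0.177) and without the block (0.490). Krt19 was called lower in the comparison of all mice without mCh mouse 2 (log2 fold change -0.59, adjusted p = 0.0226) and with the epithelial scaling (-0.49, adjusted p = 0.0335). DESeq2 called it lower there too (-0.42, adjusted p = 0.0266). Set beside Krt8 per kb, Krt19 made up 26.0%, 20.6%, 18.0% and 23.4% of its level in Dll1- cells and 12.0%, 11.3%, 12.0% and 18.7% in Dll1+ cells of the 4 mice, lower in 4 of 4.

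**Figure D3:**
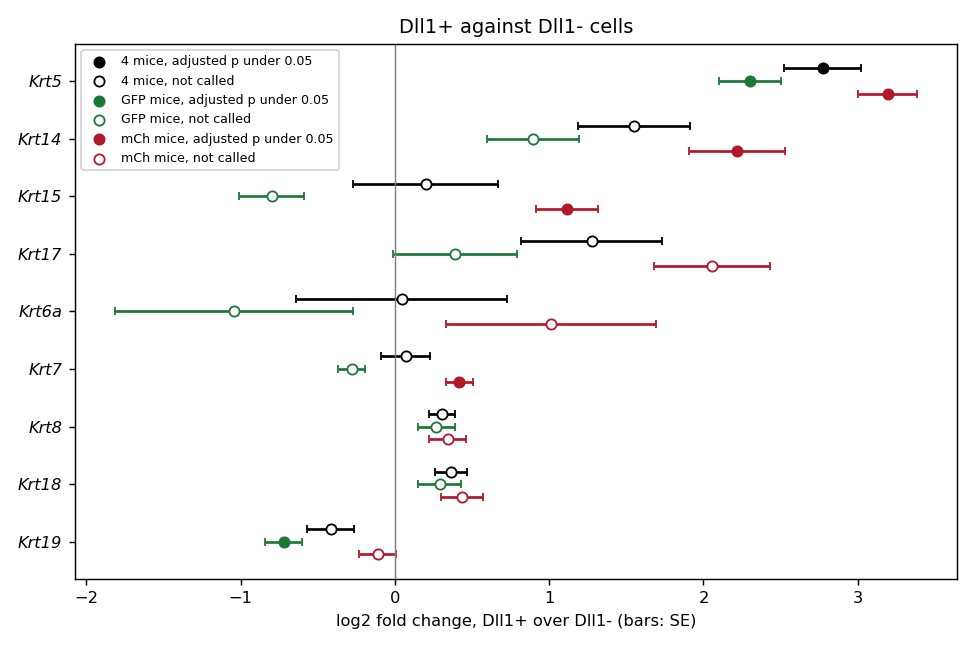
Log2 fold change of Dll1+ over Dll1- cells with its SE for 9 keratins, over the 4 mice and in the 2 mice of each reporter, with filled symbols for an adjusted p under 0.05 (edgeR). Krt5 is filled in all 3 comparisons, Krt19 in GFP mice, and Krt14, Krt15 and Krt7 in mCh mice.

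The libraries of mCh mice differed in stromal content between Dll1- and Dll1+ cells (above), with the lower fibroblast sum in Dll1+ cells, and its part in the changes of the keratins was not tested. Measured against the summed level of the 6 epithelial markers of the same library, Krt5 was 5.67, 4.50, 11.0 and 5.76 times as high in Dll1+ as in Dll1- cells of GFP mice 1 and 2 and mCh mice 1 and 2. Krt14 was 2.25, 1.63, 6.36 and 2.59 times as high. Krt8 was higher in 4 of 4 mice, by ratios of 1.08 to 1.36, as was Krt18, by 1.14 to 1.40, while Krt19 was lower in 4 of 4, at 0.623 to 0.864. Krt15 and Krt7 kept opposite directions in the reporters on this scale. With libraries scaled in this way, edgeR called Krt5 and Krt19 over the 4 mice, the same 2 members in GFP mice, and Krt5, Krt14, Krt15 and Krt17 in mCh mice. This scaling, which was chosen after the data were seen, moved the median log2 fold change of all genes in mCh mice from 0.02 to -0.17.

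Whether the change differed between the reporters was tested as the effect in GFP mice minus that in mCh mice. For this difference 0 of 9 members passed an adjusted p under 0.05 with edgeR, against 0.0710% of all genes, and 6 of 9 had an unadjusted p under 0.05. DESeq2 called 2, Krt15 and Krt7, and edgeR without the filter on low counts called 4. All 9 differences lay below 0, that is, the change was more positive in mCh mice, with a median of -0.89 against -0.05 over all genes. The difference was -1.91 with an SE of 0.29 for Krt15 (adjusted p = 0.0864), -0.70 with an SE of 0.12 for Krt7 (0.106) and -0.61 with an SE of 0.17 for Krt19 (0.235). For Krt5 it was -0.89 with an SE of 0.27 (0.284), for Krt14 -1.32 with an SE of 0.42 (0.340), for Krt17 -1.66 with an SE of 0.54 (0.359) and for Krt6a -2.06 with an SE of 1.03 (0.515). For Krt8 (-0.07) and Krt18 (-0.14) it was within 1 SE of 0 on the log2 scale, and both turned positive with the epithelial scaling (0.17 and 0.10). That scaling also moved the median of all genes from -0.05 to 0.19. Without mCh mouse 1, Krt15 (-2.26, adjusted p = 0.0181), Krt7 (-0.77, 0.0376) and Krt19 (-0.79, 0.0487) were called.

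Between the reporters, mCh libraries were set against GFP libraries of the same Dll1 state, with 2 mice in each group and no pairing. All 10 members were tested in this fit, Krt6b only through its 28 and 58 counts in mCh mouse 2, so that its direction was fixed by the filter. The other 9 had a log2 fold change above 0 in both states. The median of the 10 was 0.46 in Dll1- and 1.81 in Dll1+ cells, against 0.03 and 0.05 over all genes. Libraries were left out here 1 at a time, which leaves 1 library in that group, with the spread taken from the other groups. In Dll1- cells 0 of 10 members were called with edgeR, against 34.9% of all 19843 genes, with 2 at an unadjusted p under 0.05 and 2 called by DESeq2. Krt17 differed most, at a mean of 13.4 CPM (SD 2.70, n = 2) in GFP and of 102 CPM (SD 116, n = 2) in mCh mice, with a log2 fold change of 2.93 and an SE of 1.09 (adjusted p = 0.0793). It was called without the Dll1- library of mCh mouse 1 (3.75, adjusted p = 0.0213), when a single mCh library was left. Krt5 had a log2 fold change of 1.43 with an SE of 0.51 (adjusted p = 0.0703), and the 4 luminal members of 0.03 to 0.21, each within 1 SE of 0. Without the Dll1- library of mCh mouse 2, Krt14, Krt6a, Krt7, Krt8, Krt18 and Krt19 had a log2 fold change below 0 (-0.92 for Krt14), and without that of mCh mouse 1 this held for Krt15 (-0.58), while Krt5 and Krt17 stayed above 0 in both.

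In Dll1+ cells 2 of 10 members were called, Krt5 and Krt17, against 27.6% of all genes. Krt5 was at a mean of 49.0 CPM (SD 29.8, n = 2) in GFP and 231 CPM (SD 16.9, n = 2) in mCh mice, with groups that did not overlap and a log2 fold change of 2.22 with an SE of 0.50 (adjusted p = 0.0219). Krt17 was at 17.7 CPM (SD 4.25, n = 2) and 323 CPM (SD 290, n = 2), with a log2 fold change of 4.16 and an SE of 1.14 (adjusted p = 0.0377). Both calls were lost without the Dll1+ library of GFP mouse 2 (adjusted p of 0.0923 for Krt5 and 0.187 for Krt17), without that of mCh mouse 2 (0.0505 and 0.124) and without the filter on low counts (0.0993 and 0.163). The call of Krt5 was also lost without the Dll1+ library of mCh mouse 1 (0.0648) and that of Krt17 without that of GFP mouse 1 (0.150). Krt15 had a log2 fold change of 2.29 with an SE of 0.70 (adjusted p = 0.0512). It passed with RLE size factors (0.0496), with DESeq2 (0.00100), with at least 10 counts in every library (0.0432) and with the 4 Dll1+ libraries fitted alone (0.0415). Krt7 had a log2 fold change of 0.83 (0.105, and 0.0375 with DESeq2), which was 1.26 with mCh mouse 2 as the single mCh library. That of Krt8 was 0.21 with an SE of 0.25 (0.553) and that of Krt18 0.33 with an SE of 0.23 (0.317). Without the Dll1+ library of mCh mouse 2 the log2 fold changes of Krt8 and Krt19 were below 0, at -0.13 and -0.087.

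**Figure D4:**
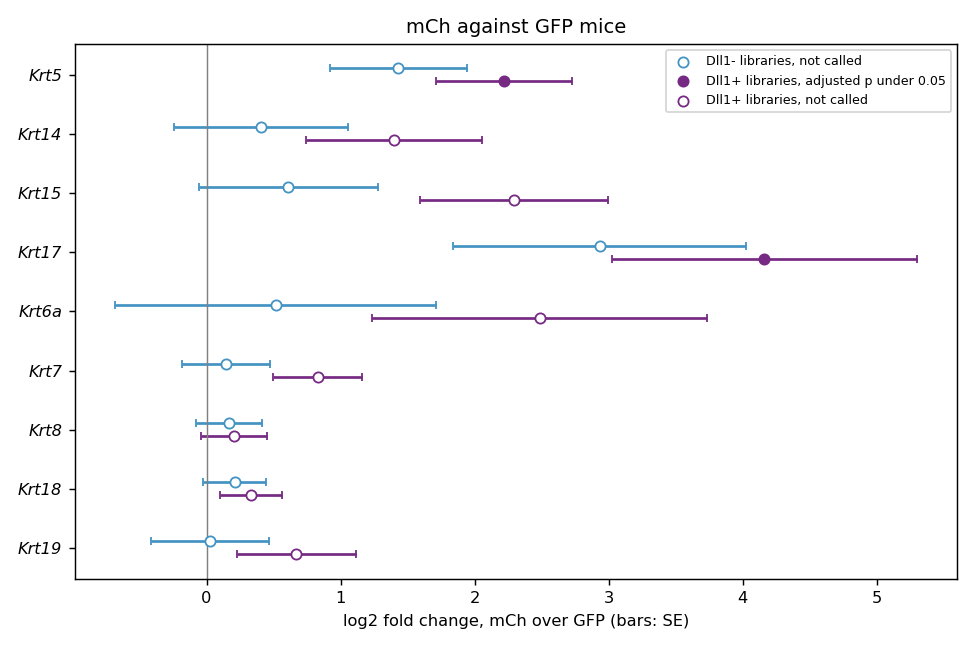
Log2 fold change of mCh over GFP mice with its SE for 9 keratins in Dll1- and in Dll1+ libraries, with filled symbols for an adjusted p under 0.05 (edgeR). Krt5 and Krt17 are filled in Dll1+ cells, none is filled in Dll1- cells, and every symbol lies to the right of 0.

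The balance of the basal and the luminal pair was expressed as a share. Per kb, Krt5 and Krt14 together came to 2.77% and 2.10% of Krt8 and Krt18 together in Dll1- cells of GFP mice 1 and 2, and to 5.78% and 3.11% in their Dll1+ cells. In mCh mice 1 and 2 the share was 1.77% and 4.15% in Dll1- and 11.8% and 11.2% in Dll1+ cells. Dll1+ cells were higher in 4 of 4 mice, yet Dll1- cells of mCh mouse 2 held a larger share than Dll1+ cells of GFP mouse 2. In all 8 libraries the luminal pair outweighed the basal pair. As a description of the same library sums, the 6 basal members added up to 52.0 to 227 CPM per kb in Dll1- and 81.5 to 742 CPM per kb in Dll1+ cells, and the 4 luminal members to 1964 to 2841 and 2346 to 3823 CPM per kb.

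**Figure D5:**
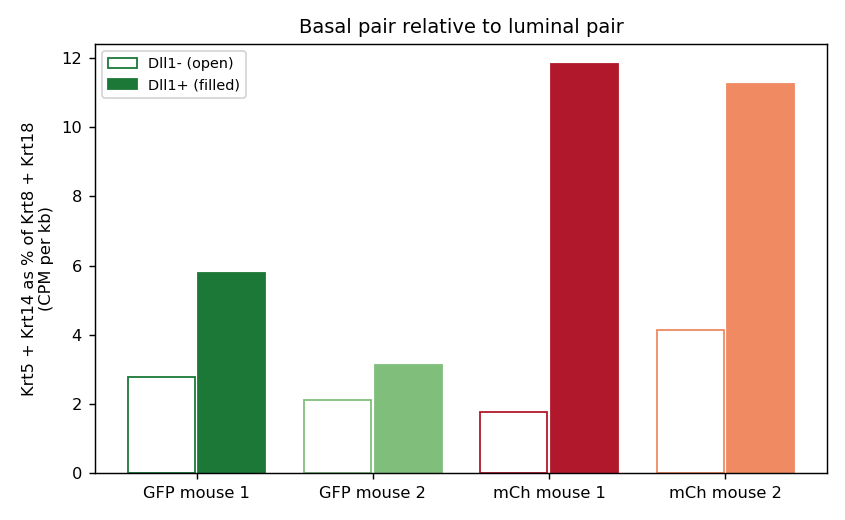
Summed CPM per kb of Krt5 and Krt14 as a percentage of that of Krt8 and Krt18, with an open bar for the Dll1- and a filled bar for the Dll1+ library of each mouse. The filled bar is the higher in 4 of 4 mice, and the tallest bars are those of Dll1+ cells of mCh mice 1 and 2, at 11.8% and 11.2%.

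Of the 43 other coding keratins 13 could be tested in the Dll1 comparisons. With all mice together 3 were higher and 0 lower in Dll1+ cells, where 14.0% of all genes were called, and the median log2 fold change was 0.52 against -0.000684 over all genes. The 3 calls became 1 without GFP mouse 1 or without mCh mouse 1, 2 with RLE size factors, 1 with at least 10 counts in every library and 0 without the block. Krt23, a type I keratin of simple epithelia, was at 25.7 and 39.0 CPM in Dll1- and 36.5 and 53.2 CPM in Dll1+ cells of the GFP mice, and at 32.5 and 45.2 against 52.1 and 71.5 CPM in the mCh mice. It was higher in Dll1+ cells of every mouse, with a log2 fold change of 0.58 and an SE of 0.06 (adjusted p = 0.00771, edgeR). Krt9 (1.56) and Krt1 (1.50), keratins of the epidermis, were called at levels of at most 1.49 and 9.50 CPM. Krt1 was not higher in GFP mouse 2 (0.139 CPM in Dll1- and 0.112 CPM in Dll1+ cells), and its adjusted p of 0.0490 became 0.0503 with RLE size factors, 0.0818 with epithelial scaling, 0.132 without GFP mouse 1, 0.187 without mCh mouse 1 and 0.136 without mCh mouse 2. The call of Krt9 was lost without GFP mouse 1 (0.0613), GFP mouse 2 (0.0558) or mCh mouse 1 (0.0773). In GFP mice Krt79, a keratin of skin glands and follicles, was lower, at 31.1 and 34.3 against 14.2 and 15.4 CPM (log2 fold change -1.15, adjusted p = 0.0336), a call lost without either GFP mouse (0.196 and 0.214). In mCh mice Krt16, the usual type I partner of Krt6a, was higher, at 5.53 and 11.5 against 11.7 and 31.1 CPM (log2 fold change 1.26, adjusted p = 0.0115, and 0.0777 without mCh mouse 2). Krt16 shares 17.6% of the 31-base sequences of Krt14, and Krt17 a further 10.5%, so that these type I keratins are not fully separate measurements.

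Keratins of skin and hair were low. A list of 14 markers of skin keratinocytes summed to 22.9 to 43.4 CPM in the 8 libraries, with 31.4 and 38.3 CPM in Dll1- cells of the GFP mice and 43.4 CPM in Dll1+ cells of mCh mouse 2. Krt10, a keratin of differentiating epidermis, was at 2.50 to 4.64 CPM in the libraries of GFP mice and mCh mouse 1, and at 6.47 and 11.5 CPM in those of mCh mouse 2. A list of 16 hair follicle markers summed to 5.79 to 23.7 CPM, of which Lgr5, a stem cell marker also found outside the follicle, made up 21.5 of the 23.7 CPM in Dll1+ cells of GFP mouse 1. Without Lgr5 the other 15 summed to 1.88 to 3.85 CPM in the GFP libraries, to 6.83 and 5.71 CPM in Dll1- and Dll1+ cells of mCh mouse 1 and to 10.04 and 17.4 CPM in those of mCh mouse 2. Krt27, a keratin of the inner root sheath, had 2, 5, 0 and 0 counts in the GFP libraries and 20 to 151 counts in the mCh libraries, and Krt71, of the same layer, was at 0.347 to 1.08 CPM in GFP and at 1.92 to 3.46 CPM in mCh libraries. Krt73 and Krt25, named after their values were seen, were at 0 counts in the 4 GFP libraries, and at 2.64 and 1.59 CPM in Dll1- and 5.92 and 2.25 CPM in Dll1+ cells of mCh mouse 2. In mCh mouse 1, Krt73 was at 0.0721 and 0.275 CPM and Krt25 at 0.112 and 0 CPM in Dll1- and Dll1+ cells. The same pair of libraries was also the highest in Krt17, Krt6a and Krt6b and in the luminal members Krt7, Krt8, Krt18 and Krt19. This did not hold for Krt5, Krt14 and Krt15. The part of skin or follicle RNA in those values was not tested.

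Genes that regulate keratins were followed as a list of 16. Like the other lists, it was chosen with earlier results of these data known. Its counts beside the share of all genes are therefore a description and not a test. Over the 4 mice 7 were higher and 0 lower in Dll1+ cells, 3 were higher in GFP and 9 in mCh mice, with 0 lower in each, where 14.0%, 9.13% and 11.8% of all genes were called. The 7 calls became 1 without GFP mouse 1 or without mCh mouse 1, 5 without either of the others and 0 without the block. In GFP mice the calls were lost without either GFP mouse, as were nearly all calls of any gene. In mCh mice fewer of the list and of all genes were called without either mCh mouse. With epithelial scaling the 9 in mCh mice became 5. Trp63, the master factor of basal cells, was at 30.2 and 30.7 CPM in Dll1- and 52.9 and 40.3 CPM in Dll1+ cells of the GFP mice, and at 7.94 and 12.5 against 27.3 and 32.1 CPM in the mCh mice. It was higher in Dll1+ cells of every mouse, with log2 fold changes of 0.60 in GFP (adjusted p = 0.0603, edgeR) and 1.58 in mCh mice (0.00846). Its relative Trp73 was at 0.0682 to 0.231 CPM in Dll1- and 0.313 to 1.18 CPM in Dll1+ cells (log2 fold change 2.77, adjusted p = 0.00825). Trp73 passed the filter on low counts only through the Dll1+ libraries, so that its direction was fixed by the filter. Its levels in Dll1- cells of the GFP mice lay under the floor of 3 counts. It is among the 7 calls over the 4 mice and the 3 calls in GFP mice. Sox9, a factor of mammary progenitors, had a log2 fold change of 0.54 (0.0150), Klf5, a zinc finger factor of epithelia, of 0.52 (0.0182), and the Notch targets Hey1 and Hes1 of 1.02 (0.00850) and 0.42 (0.0151). Without GFP mouse 1 the adjusted p was 0.0501 for Hey1, 0.0524 for Sox9, 0.0650 for Hes1 and 0.0687 for Klf5, and the last 3 also lost their call without mCh mouse 1 (0.0735, 0.0766 and 0.0652), Klf5 without GFP mouse 2 as well (0.0552). Between the reporters the calls were on the other side. In Dll1- cells 9 of 16 were lower and 0 higher in mCh than in GFP mice, with Trp63 at -1.56 (0.00420), Tfap2c, an AP-2 factor of luminal cells, at -0.79 (0.00377) and Grhl2, an epithelial factor, at -0.72 (0.00459), and in Dll1+ cells 4 were lower and 0 higher, where 34.9% and 27.6% of all genes were called.

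Of 16 linkers and modifiers of keratin filaments, 2 were higher and 0 lower over the 4 mice, against 14.0% of all genes called. The count was 1 without GFP mouse 1 or mCh mouse 1 and 0 without the block. Dsp, desmoplakin, which ties keratins to desmosomes, was at 107 and 110 CPM in Dll1- and 161 and 215 CPM in Dll1+ cells of the GFP mice, and at 105 and 96.3 against 179 and 198 CPM in the mCh mice. It was higher in every mouse, and the groups of 4 did not overlap (log2 fold change 0.84, SE 0.09, adjusted p = 0.00671, edgeR). Sfn, stratifin, an adaptor of stratified epithelia, had a log2 fold change of 0.51 (0.0158, and 0.0725 and 0.0796 without GFP mouse 1 or mCh mouse 1). Eppk1, epiplakin, a keratin binder, was called lower in Dll1+ cells of GFP mice (-0.39, adjusted p = 0.0327, and 0.215 and 0.272 without GFP mouse 1 or 2) and higher in those of mCh mice (0.64, 0.0110). Between the reporters 1 linker was higher and 5 lower in Dll1- cells of mCh mice, where 34.9% of all genes were called. Among the lower was Dst (-0.99, 0.00172), a hemidesmosome linker. In Dll1+ cells 2 were higher and 1 lower, where 27.6% of all genes were called, with Trim29, which is found in basal cells, at 2.31 (0.0136).

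Of 14 other intermediate filament genes, 11 were tested, with 0 higher and 1 lower in Dll1+ cells over the 4 mice, against 14.0% of all genes called. That gene was Lmnb1, a nuclear lamin (log2 fold change -0.91, adjusted p = 0.0119, edgeR, and 0.0599 and 0.0670 without GFP mouse 1 or mCh mouse 1). Markers of proliferation were also called lower, 8 of 8 in each of the 3 Dll1 comparisons, where 14.0%, 9.13% and 11.8% of all genes were called. Vim and Des, filaments of mesenchymal and muscle-like cells, set the reporters apart. Vim was at 57.8 to 77.6 CPM in the 4 GFP libraries, at 490 and 1317 CPM in Dll1- and at 355 and 581 CPM in Dll1+ cells of the mCh mice. Des was at 0.291 to 0.624 CPM in the GFP libraries and at 14.7 and 25.5 CPM in Dll1- and 2.37 and 3.65 CPM in Dll1+ cells of the mCh mice, with a log2 fold change of -2.72 between Dll1+ and Dll1- cells there (0.0106). In mCh mice Des, like the fibroblast and pericyte sums, was thus lower in Dll1+ cells. Its relation to the keratin changes was not tested.

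Sequence shared between genes bears on the other members less than on Krt6a and Krt6b. Of the 31-base sequences of a member's transcripts, those also found in another gene made up 32.3% for Krt8, nearly all of them in the pseudogene Krt8-ps, 28.2% for Krt14, 15.8% for Krt17, 12.8% for Krt5, 11.4% for Krt18, 3.74% for Krt15, 2.11% for Krt7 and 0.439% for Krt19. Krt5 shares its largest part, 9.46%, with Krt6a, which was below Krt5 per kb in every library.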

How the data were processed

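Total RNA of sorted cells was sequenced from TruSeq stranded libraries. The authors quantified reads with Salmon on GENCODE transcripts of GRCm38.p6 and summarized them per gene, and the deposited values are estimated counts, which are whole numbers. Of 53697 genes, 52806 were paired with a symbol. Length-adjusted levels used the length of each gene's principal transcript in an annotation of the same build.

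Tests across genes used edgeR 4.0.16 under R 4.3.3 (TMM, robust quasi-likelihood fit, filterByExpr, Benjamini-Hochberg adjustment over all tested genes at 0.05). This test gives no SE. The SE printed here is the absolute log2 fold change divided by the square root of the F statistic. The 3 Dll1 comparisons and the difference between reporters were fitted with the mouse as a block, and the comparisons of mCh with GFP mice were fitted on 4 groups. Pairing comes from the mouse number in the labels. The correlation of deviations within mice was 0.554 in mCh and -0.0472 in GFP mice, over 18322 genes. Alternatives were RLE size factors, DESeq2 1.42.0, other filters, no block, separate fits, each mouse or library left out, Krt6a and Krt6b summed, and, chosen after seeing the data, scaling to the summed counts of 6 epithelial markers. Shared sequence was counted in runs of 31 bases of the transcripts.

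All 10 members were named. Of the other keratins, keratin regulators, linkers and other intermediate filament genes, called genes were picked for naming by lowest p. Up to 5 were picked in the comparison over 4 mice and up to 3 in each other comparison, and not all are printed. Cell type markers were read mainly as sums. Members and lists were chosen with earlier results of these data known. The scripts were tested on simulated data.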

Additional observations from a re-analysis of the deposited data

Results flagged for a closer look

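Krt18 in Dll1+ cells of mCh mouse 2 (2210 CPM) stood apart from the other 3 Dll1+ libraries (1372 to 1482 CPM), with a gap to its neighbour of 0.838 of the whole range on the log2 scale. That is above Dixon's critical value for 4 samples, which chance passes in about 1 of 20 groups, and 27 measures were examined.

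Krt15 and Krt7 went down in Dll1+ cells of both GFP mice and up in those of both mCh mice. Krt6a had the same signs, but hardly differed in GFP mouse 1 and mCh mouse 1, at ratios of 0.955 and 1.20. The difference of the log2 fold changes, GFP minus mCh, was -1.91 for Krt15, -2.06 for Krt6a and -0.70 for Krt7, and the interaction test of edgeR gave adjusted p-values of 0.0864, 0.515 and 0.106, which do not pass the threshold. Relative to the summed epithelial markers the directions stayed opposite for Krt15 and Krt7, whereas Krt6a was then 1.02 times as high in Dll1+ as in Dll1- cells of GFP mouse 1.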

How the results depend on the processing

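With 2 mice per reporter, calls near the threshold depended on the fit. Of the 10 keratins, over the 4 mice 1 was called, and 2 were called with RLE size factors, 5 with DESeq2, 3 with at least 10 counts in every library, 2 with epithelial scaling, 0 with no replicate block, and 1 to 2 with a mouse left out. In GFP mice 2 were called, against 4 with DESeq2, 4 with that reporter fitted alone, 0 with no replicate block, and 0 to 4 with a mouse left out. In mCh mice 4 were called, against 7 with DESeq2, 0 fitted alone, 0 with no replicate block, and 2 to 3 with a mouse left out. For the difference between reporters 0 were called, against 2 with DESeq2, 4 with no filter, and 0 to 3 with a mouse left out. Between reporters the counts were 0 in Dll1- and 2 in Dll1+ cells, against 2 and 4 with DESeq2, 0 with no filter in Dll1+ cells, and 0 to 1 and 0 to 2 with a library left out. The cause was not tested. Without the mouse block the Dll1 comparisons thus had no call among the keratins, and Krt5 over the 4 mice had an adjusted p of 0.267 without it. The number of all genes called moved as well. Over the 4 mice it was 2568 at the main settings, 4362 with DESeq2 and 0 with no replicate block. It was 433, 779 and 405 without GFP mouse 1, GFP mouse 2 or mCh mouse 1. In GFP and mCh mice it was 1673 and 2154, and 274 and 212 with no replicate block. It fell to nearly none in GFP mice with either GFP mouse left out, and it fell in mCh mice with any mouse left out. With the mCh mice fitted alone it was 0.

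Some log2 fold changes turned sign, none of them called. Over the 4 mice, Krt6a was at -0.056 with DESeq2 and -0.050 with epithelial scaling, and Krt7 at -0.0051 with epithelial scaling. In the difference, Krt8 and Krt18 were at 0.17 and 0.10 with epithelial scaling, and in Dll1- cells Krt19 was at -0.0099 between reporters with those 4 libraries fitted alone. With 1 mouse or library left out the ranges that crossed 0 were, over the 4 mice, -0.22 to 0.57 for Krt15, -0.60 to 0.66 for Krt6a and -0.082 to 0.20 for Krt7. They were -0.050 to 0.85 for Krt17 in GFP mice, -0.35 to 0.074 for Krt19 in mCh mice, and -0.14 to 0.039 for Krt8 and -0.35 to 0.060 for Krt18 in the difference. Between reporters in Dll1- cells they were -0.92 to 1.05 for Krt14, -0.58 to 1.22 for Krt15, -0.27 to 1.11 for Krt6a, -1.71 to 7.51 for Krt6b, -0.25 to 0.41 for Krt7, -0.10 to 0.35 for Krt8, -0.011 to 0.37 for Krt18 and -0.47 to 0.35 for Krt19, and in Dll1+ cells -0.13 to 0.53 for Krt8 and -0.087 to 1.22 for Krt19. In Dll1- cells the low ends came without the Dll1- library of mCh mouse 2, except that of Krt15, which came without that of mCh mouse 1.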

Other observations

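The ratio of Krt17 to Krt14, both basal type I keratins, differed by mouse. Per kb, Krt17 was at 0.153 and 0.282 times the level of Krt14 in Dll1- cells and 0.131 and 0.165 times in Dll1+ cells of GFP mice 1 and 2. In mCh mouse 1 the ratio was 0.586 and 0.526, and in mCh mouse 2 it was 1.35 and 1.21, so that Krt17 exceeded Krt14 in that mouse alone.

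Krt7 per kb was at 0.162 to 0.197 times the level of Krt19 in the 4 Dll1- libraries and at 0.223 to 0.305 times in the 4 Dll1+ libraries. The groups did not overlap, although Krt7 itself went in opposite directions by reporter. The ratio was noticed in these data and has no test here.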
